A study of Mus musculus with 29 samples.

Results

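In proliferating C2C12 cells, an immortal line of mouse myoblasts, polyadenylated RNA from a membrane fraction was compared with that from a cytosol fraction, before any puromycin had time to act and without a gradient. The members were chosen by their labels: 3 membrane and 3 cytosol whole-fraction libraries that formed 3 pairs, 6 of the 26 3' end libraries and of the 29 samples in all. The plain pair and the untreated pair carried no puromycin, and the 0 min pair was labelled with 100 µg/ml puromycin for 0 min. All 6 came from cells grown in DMEM with 10% fetal bovine serum, penicillin and streptomycin, and their RNA was extracted with TRIZol. The method by which membrane and cytosol were separated is not given in the sources used here. Libraries were made with 3'READS+, which sequences the transcript end next to the poly(A) tail, so the position of a read names the poly(A) site and the sum over sites gives the level of a gene. The cells are 1 line. Whether the pairs are separate cultures is not in the labels, so a p-value here speaks only of the scatter among these 6 libraries, part of which may be technical. For the use of poly(A) sites that scatter was in effect shared over all genes tested, not measured gene by gene.

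Messages for secreted and membrane proteins are known to be translated on the endoplasmic reticulum (ER). A signal peptide or a transmembrane segment leaving the ribosome is bound by the signal recognition particle, which brings the ribosome and its message to the translocon in the ER membrane. Proteins of the cytosol, nucleus and most of the mitochondrion are made on free ribosomes, and tail-anchored proteins, whose only membrane segment lies at the end of the chain, are released before insertion. Messages can also reach the ER without ongoing translation, and the alternative 3' untranslated regions (3' UTRs) that poly(A) site choice creates are the subject named in the study's title.

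The 3 membrane libraries held 6150000 (plain), 11631401 (untreated) and 7889326 (0 min) reads in the sites used, and the 3 cytosol libraries held 5881983, 5506600 and 7254243. Genes with at least 1 read numbered 12584, 13152 and 12809 in membrane and 11972, 11965 and 12092 in cytosol. Of 8 myoblast regulators tested, 0 were higher and 3 were lower in membrane (1 without the pair as a block). Among all genes tested, 31.8% were higher and 30.0% lower, so the lower count was near that share. The summed level of the regulators was between 374.1 and 578.5 CPM (counts scaled to library size) in membrane and between 529.5 and 635.0 CPM in cytosol. Myod1, the myoblast-determining factor, had 7.75, 3.16 and 2.01 CPM in membrane and 13.3, 3.37 and 3.19 CPM in cytosol, while Pax7 and Pax3 had no read. Myotube genes summed to between 73.4 and 196.9 CPM in membrane and between 131.2 and 311.0 CPM in cytosol, with the plain pair highest in both fractions. Markers of other cell types summed to between 1.1 and 2.2 CPM in membrane and between 1.1 and 2.1 CPM in cytosol.

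Of 9747 genes tested, 3097 were higher (31.8% of those tested) and 2924 lower (30.0%) in membrane than in cytosol, 61.8% in all (edgeR's quasi-likelihood test with pair as a term, Benjamini-Hochberg adjusted p under 0.05). Without the pair as a block, 2234 genes were higher and 1237 lower. The sizes were lopsided. Differences of at least 2 on the log2 scale were found for 1616 higher genes and 25 lower genes, and differences of at least 3 for 996 higher and 0 lower genes. The higher genes took 45.3%, 43.1% and 42.9% of the reads in the membrane libraries (plain, untreated and 0 min) and 9.56%, 9.09% and 8.31% of those in the cytosol libraries. The lower genes took 34.0%, 36.5% and 37.9% of membrane reads and 69.5%, 70.7% and 72.1% of cytosol reads. In 4941 genes (50.7%) the membrane and cytosol levels did not overlap, and 5978 of the 6021 called genes had the same sign in all 3 pairs. CPM is scaled to library sizes adjusted by TMM, so the RNA content of a fraction is not in it. Which ratio counts as no difference rests on that scaling. With DESeq2 size factors instead, 3008 genes were higher and 3127 lower. The median over all genes tested was -0.03 on the log2 scale, or -0.08 with those size factors.

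Every group of values below is given in the order plain, untreated and 0 min. Within each list of genes, the most abundant members and the member with the lowest p were named by a fixed rule. Other members, among them the exceptions, were chosen after their values were seen.

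All 26 ER chaperones and folding enzymes tested, most of them residents of the ER lumen, were higher in membrane. They had a median log2 ratio of 3.92, with no overlap between fractions for any of the 26. Calr, the calcium-binding chaperone calreticulin, had 2315, 2855 and 2995 CPM in membrane and 95, 98.4 and 123 CPM in cytosol. The fractions were far apart in each pair, and the log2 ratio was 4.69 (SE 0.17, adjusted p = 1.6e-09). Pdia3, a disulfide isomerase, had 1671, 2378 and 2466 CPM in membrane and 37.0, 86.2 and 71.6 CPM in cytosol, a log2 ratio of 5.13 (SE 0.20, adjusted p = 1.6e-09), the highest of the list. Hspa5, the ER HSP70 chaperone BiP, had 520, 685 and 605 CPM in membrane and 21.8, 35.2 and 23.6 CPM in cytosol, a log2 ratio of 4.51. The lowest of the 26 was Sdf2l1, part of an ER chaperone complex, at 2.38.

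The translocation and N-glycosylation machinery held 1 clear exception. Of 26 members tested, 24 were higher and 1 was lower in membrane, with a median of 3.35. Ssr2, a subunit of the translocon-associated complex, had 1695, 1919 and 2167 CPM in membrane and 48.4, 120 and 85.9 CPM in cytosol (log2 ratio 4.59). The log2 ratio was 4.33 for Rpn2 and 4.85 for Ddost, subunits of the oligosaccharyltransferase, and 3.26 for its catalytic subunit Stt3a. Sec61b, a tail-anchored subunit of the SEC61 channel, had 48.8, 43.7 and 36.4 CPM in membrane and 85.4, 122 and 93.2 CPM in cytosol. It was lower in membrane in all 3 pairs without overlap (log2 ratio -1.22, SE 0.17, adjusted p = 5.8e-05). Sec61g, the other tail-anchored subunit of that channel, was rare, with 2.42, 2.24 and 2.01 CPM in membrane and 0.907, 1.69 and 1.27 CPM in cytosol, and it did not pass the test (log2 ratio 0.79, adjusted p = 0.177; -0.75 by RNA-seq, with 1 library a fraction and no test).

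All 35 extracellular matrix and secreted protein genes tested were higher in membrane, with a median of 3.76. Col3a1, a fibrillar collagen chain, had 1903, 2873 and 3243 CPM in membrane and 38.7, 105 and 69.5 CPM in cytosol (log2 ratio 5.31, SE 0.22, adjusted p = 1.78e-09). Spp1, the secreted phosphoprotein osteopontin, had 8468, 2207 and 2153 CPM in membrane and 304, 117 and 91.6 CPM in cytosol. Its level was highest in the plain pair in both fractions, while the log2 ratio was 4.80, 4.23 and 4.55 in the 3 pairs. Bgn, the proteoglycan biglycan, was less even: it had 2065, 3801 and 4111 CPM in membrane and 114, 352 and 769 CPM in cytosol, and its log2 ratio was 4.17, 3.43 and 2.42 (3.34 in the fit, SE 0.35, adjusted p = 0.000181). Col12a1 was the lowest of the list at 0.55 (adjusted p = 0.0206), and it was among the 5 of 35 whose fractions overlapped, while RNA-seq of both fractions, with 1 library each and no test, gave it a log2 ratio of 3.91.

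**Figure D1:**
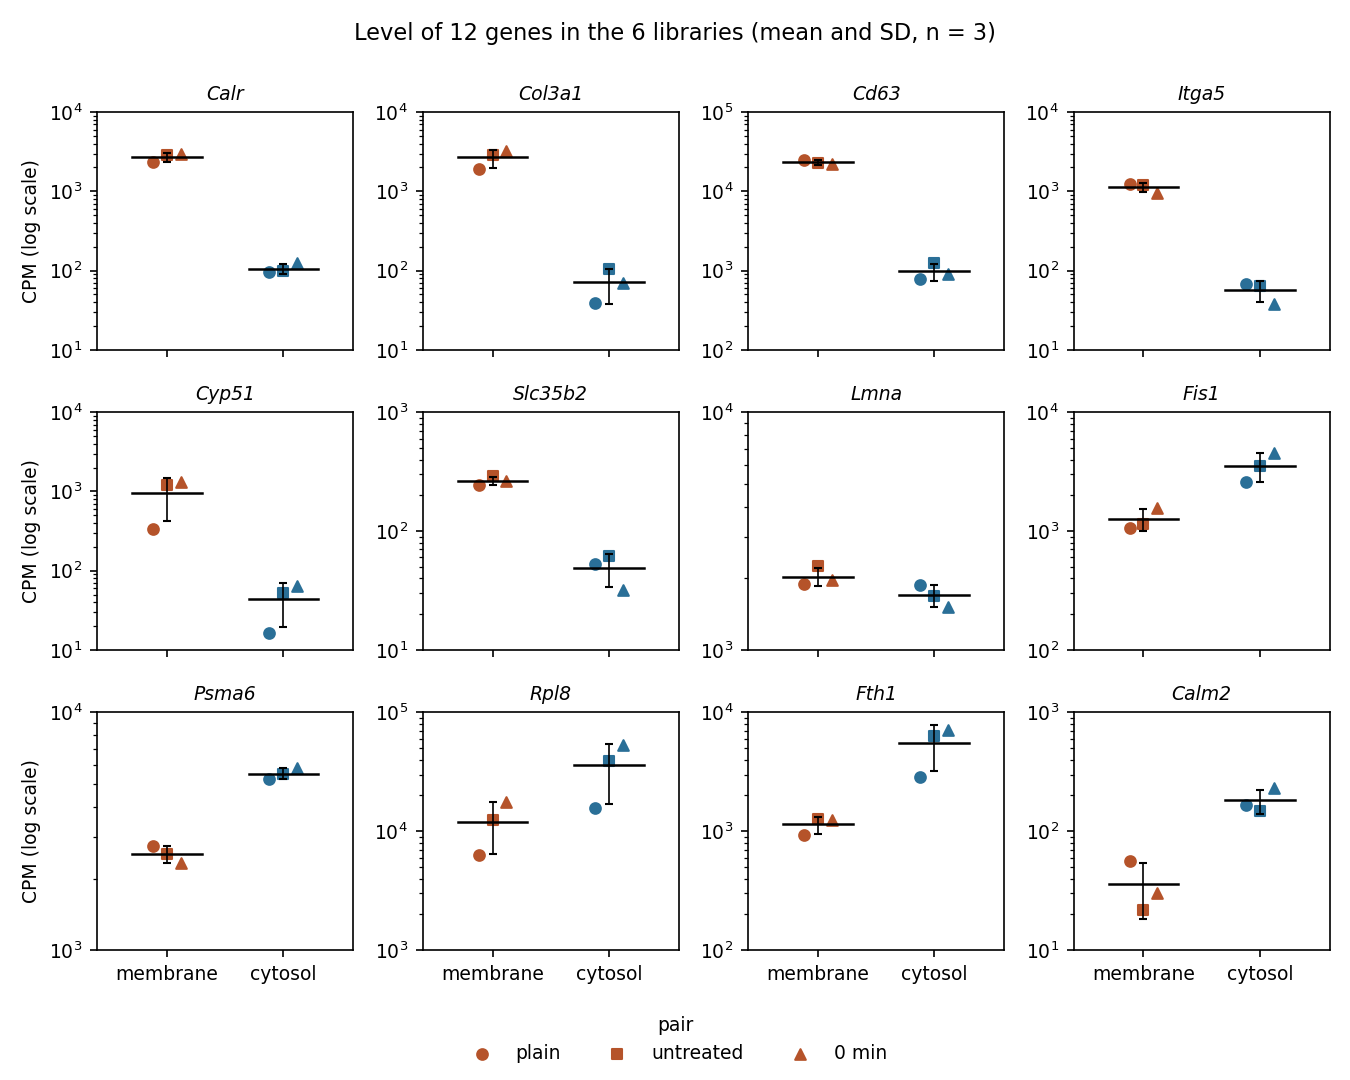
Levels of 12 genes in each library, as CPM on log axes that differ between panels, with the 3 membrane libraries left of the 3 cytosol libraries (symbols are the pairs, bars the mean and lines the SD, n = 3). Calr lies at 2315 to 2995 CPM in membrane and 95 to 123 CPM in cytosol, Lmna is nearly level, and Fis1, Psma6, Rpl8, Fth1 and Calm2 lie lower in membrane.

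Most genes of the cell surface were higher in membrane. Of 22 integrins and adhesion receptors tested, 21 were higher (median 4.01), as were 29 of 29 growth factor and signalling receptors (median 3.69) and 12 of 13 tetraspanins (median 3.50). Itga5, the fibronectin receptor chain, had 1250, 1190 and 945 CPM in membrane and 68.2, 63.3 and 37.6 CPM in cytosol (log2 ratio 4.36). Bsg, an immunoglobulin family protein that escorts lactate carriers, had 614, 637 and 672 CPM in membrane and 23.1, 18.5 and 18.5 CPM in cytosol (log2 ratio 5.00). Cd63, a tetraspanin of late endosomes, was the most abundant of these, with 24775, 22906 and 21897 CPM in membrane and 793, 1241 and 905 CPM in cytosol (log2 ratio 4.59, SE 0.20, adjusted p = 1.78e-09). The tetraspanin Tspan17, with 76.6, 139 and 229 CPM in membrane and 77.1, 112 and 118 CPM in cytosol, overlapped and was not called (log2 ratio 0.42, adjusted p = 0.0659). Among receptors the log2 ratio was 3.88 for the platelet-derived growth factor receptor Pdgfrb, 4.11 for the hepatocyte growth factor receptor Met and 4.1 for the cytokine receptor subunit Il6st.

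Lysosomal proteins, which enter the ER before they are sorted, had the highest median of the lists, 4.1, with 22 of 23 higher. Ctsb, the protease cathepsin B, had 7606, 4788 and 6040 CPM in membrane and 237, 234 and 204 CPM in cytosol (log2 ratio 4.75). Scarb2, a lysosomal membrane receptor, reached 5.55. Npc2, a soluble cholesterol carrier of the lysosome, had 2758, 3387 and 4320 CPM in membrane but 241, 523 and 1557 CPM in cytosol, so that its log2 ratio was 3.51, 2.69 and 1.47 in the 3 pairs (2.56 in the fit, SE 0.42, adjusted p = 0.00337). The 0 min cytosol library held the highest cytosol level of Npc2, as it did for Bgn. Of 23 solute carriers, which span the membrane many times, 22 were higher (median 3.44). The glucose carrier Slc2a1 stood at 4.13 and the zinc carrier Slc39a7 at 3.44, while the iron exporter Slc40a1, at 0.485 to 1.89 CPM in membrane and 1.36 to 2.81 CPM in cytosol, was not called.

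Most ER enzymes of sterol and lipid synthesis were higher in membrane, and enzymes of these pathways outside the ER were mixed. Of 25 genes tested on the ER list, 22 were higher in membrane and 0 lower (median 3.53). Besides enzymes, that list held the regulators Insig1, Insig2, Scap, Srebf1 and Srebf2. Cyp51, a sterol demethylase, had 341, 1206 and 1317 CPM in membrane and 16.2, 52.5 and 64.7 CPM in cytosol (log2 ratio 4.42), and Scd2, a fatty acid desaturase, stood at 3.62. Both fractions held less Cyp51 in the plain pair, and they did not overlap. The 3 that did not pass were Fdft1 at -0.12, Lss at -0.32 and Insig2 at 0.70, which make squalene, cyclise its epoxide and hold the sterol sensor in the ER. By RNA-seq, with 1 library a fraction and no test, the log2 ratio of Fdft1 was 3.67. Of 9 enzymes outside the ER, 3 were higher and 4 lower (median -0.39), or 1 lower without the pair as a block. The higher ones were Fasn (log2 ratio 1.83), Acaca (1.65) and Acly (0.70), which make fatty acids and their precursors, and the lower ones included the thiolase Acat2 (-0.80) and the isoprenoid isomerase Idi1 (-1.37).

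**Figure D2:**
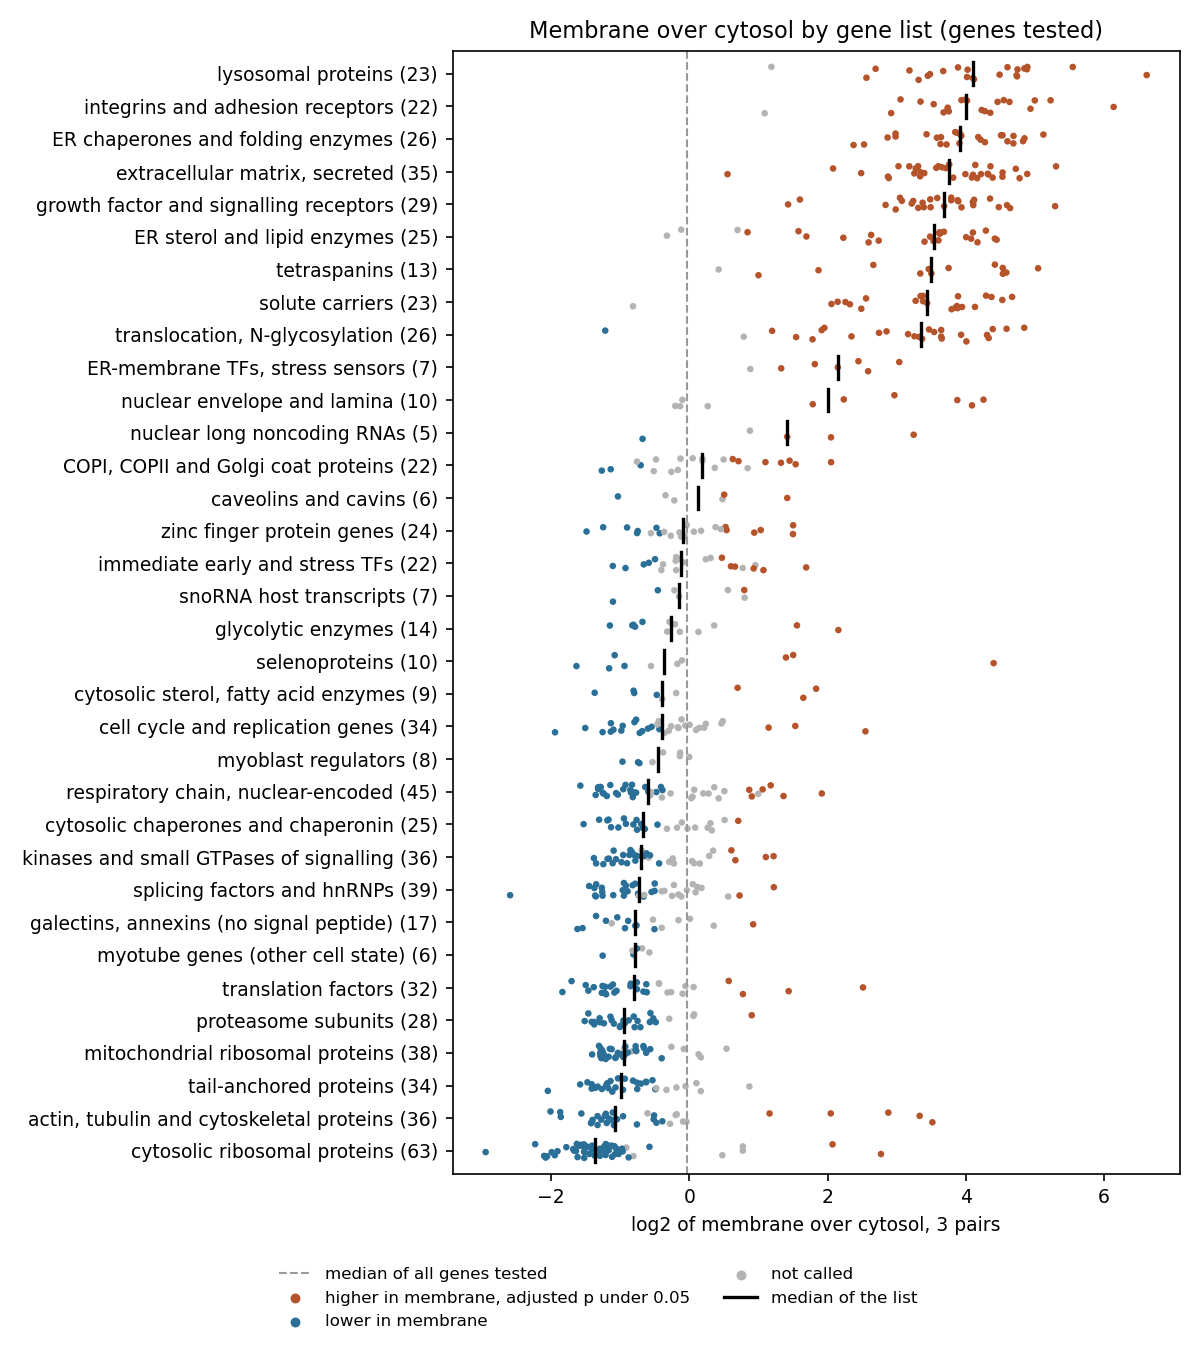
Log2 ratio of membrane over cytosol for each tested gene of each list, ordered by the median of the list, with the number tested in brackets. Medians run between -1.36 for cytosolic ribosomal proteins and 4.1 for lysosomal proteins, and the dashed line is the median of all genes tested, -0.03.

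Most members of the tail-anchored list are membrane proteins with a segment at the end of the chain. Yet 0 of 34 members tested were higher and 27 were lower in membrane (median -1.0). Fis1, a fission factor of the outer mitochondrial membrane, had 1070, 1156 and 1559 CPM in membrane and 2588, 3511 and 4560 CPM in cytosol, with no overlap (log2 ratio -1.48, SE 0.15, adjusted p = 3.68e-06). Bet1, a SNARE protein of ER to Golgi transport, had 79.6, 27.8 and 46.2 CPM in membrane and 248, 134 and 220 CPM in cytosol (log2 ratio -2.05, SE 0.17, adjusted p = 4.42e-07), the lowest of the list. Vamp8, an endosomal SNARE, had 252, 219 and 350 CPM in membrane and 418, 424 and 522 CPM in cytosol (log2 ratio -0.75). Without the pair as a block, 14 of the 34 were lower. The difference between tail-anchored and other membrane protein lists was not tested as such.

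The nuclear envelope list separated its members. Of 10 tested, 6 were higher and 0 lower (median 2.01). The higher ones were the SUN proteins Sun2 and Sun1, the nesprin Syne1, the lamin B receptor Lbr, the pore anchor Pom121 and Tor1aip1, all proteins with transmembrane segments. Sun2 had 2296, 1404 and 1681 CPM in membrane and 96.8, 96.9 and 82.7 CPM in cytosol (log2 ratio 4.26). The lamins lie under the membrane without crossing it: Lmna had 1902, 2245 and 1962 CPM in membrane and 1880, 1687 and 1520 CPM in cytosol (log2 ratio 0.27, SE 0.15, adjusted p = 0.152), and the log2 ratio was -0.13 for Lmnb1 and -0.20 for Lmnb2. Tmpo, at -0.10, was not called either. Emd, the tail-anchored emerin of the same membrane, was lower at -0.96 (adjusted p = 0.000183).

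Proteins that attach to membranes from the cytosol did not move as a group. Of 22 COPI, COPII and Golgi coat proteins, 7 were higher and 3 lower (median 0.19), or 6 lower without the plain pair. The log2 ratio was 2.05 for the GTPase Sar1b, 1.54 for the coatomer subunit Copb2 and 1.45 for the Golgi tether Golga2, but -1.27 for the COPII cage protein Sec13. Of 6 caveolins and cavins, 2 were higher and 1 lower, or 1 and 2 with DESeq2. Cav1, which inserts a hairpin into the membrane, was at 1.42, while the coat protein Ptrf was at -0.35 (not called) and Prkcdbp at -1.03. Of 17 proteins exported without a signal peptide, 10 were lower in membrane (6 without the pair as a block) and 1 higher (median -0.78). Lgals1, the secreted lectin galectin-1, had 12323, 12084 and 17452 CPM in membrane and 22470, 26426 and 38284 CPM in cytosol (log2 ratio -1.04), and the only one higher was the annexin Anxa2 (0.92).

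Transcription factors that are made as ER membrane proteins and cut free under stress went with the ER lists. The list also held ER stress sensors and the proteases Mbtps1 and Mbtps2. Of 7 members tested, 6 were higher and 0 lower (median 2.15), and the stress sensor Eif2ak3 was not called (0.88). Atf6b had 1195, 804 and 789 CPM in membrane and 99.3, 112 and 122 CPM in cytosol (log2 ratio 3.04), Creb3 stood at 2.15 and Mbtps1, the Golgi protease that cuts such factors, at 2.59. Of 22 genes tested on the immediate early and stress response list, 6 were higher and 5 lower (median -0.11), or 2 and 1 without the pair as a block. Neither share was above that of all genes tested. Atf4, the stress factor of the integrated stress response, was lower (-0.92) and Ier3 higher (1.69).

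The messages of the translation apparatus lay on the other side. Of 63 cytosolic ribosomal protein genes tested, 56 were lower and 2 higher in membrane (median -1.36). Rpl8 had 6335, 12316 and 17542 CPM in membrane and 15734, 38805 and 52743 CPM in cytosol. Its level differed so much between pairs that the fractions overlapped across pairs, while membrane was lower within each (log2 ratio -1.52, SE 0.16, adjusted p = 3.36e-06). Rplp0 had 154, 139 and 134 CPM in membrane and 545, 520 and 732 CPM in cytosol (log2 ratio -2.06). The 2 higher ones, Rps28 and Rpl7, were rare: Rps28 rested on 33, 66 and 25 reads in membrane and 5, 3 and 4 reads in cytosol, all at 1 site. Ribosomal protein genes have many near-identical processed copies, and the counting may split their reads, so single values are uncertain. Of 32 translation factors, 21 were lower and 4 higher (median -0.80), or 13 and 2 without the pair as a block. Eif4g1, the scaffold of the cap-binding complex, was the highest, with 206, 225 and 180 CPM in membrane and 40.8, 39.5 and 27.6 CPM in cytosol (log2 ratio 2.51, adjusted p = 2.74e-08). The elongation factor Eef2 had 2159, 3901 and 3559 CPM in membrane and 2161, 3185 and 4903 CPM in cytosol and was not called (log2 ratio -0.06, adjusted p = 0.791).

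Other machinery of the cytosol and nucleus was lower in membrane in most members. Of 28 proteasome subunits, 24 were lower and 1 higher (median -0.94). Psma6 had 2739, 2545 and 2329 CPM in membrane and 5242, 5527 and 5806 CPM in cytosol (log2 ratio -1.12, SE 0.15, adjusted p = 4.1e-05). Of 25 cytosolic chaperones and chaperonin subunits, 15 were lower and 1, Hsph1, was higher (median -0.67). Splicing factors had 23 lower and 2 higher of 39 (median -0.73), with Srsf2 at -1.45 and Sf3b1 at 1.22, and with 4 higher without the plain pair. Kinases and small GTPases of signalling had 22 lower and 4 higher of 36 (median -0.69), with the kinase Mapk3 at -1.17 and the mTOR partner Rptor at 1.22. Without the pair as a block the lower counts were 12 for the proteasome, 6 for cytosolic chaperones, 10 for splicing and 8 for kinases and GTPases. Cell cycle and replication genes had 15 lower (6 without the pair as a block) and 3 higher of 34 (median -0.40). Mki67, a surface protein of mitotic chromosomes, was the highest of those, with 546, 718 and 655 CPM in membrane and 106, 118 and 102 CPM in cytosol (log2 ratio 2.55, adjusted p = 2.03e-08).

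The cytoskeleton list had a median of -1.07, with 25 of 36 lower (14 without the pair as a block), but 5 were higher. Vcl, the focal adhesion protein vinculin, had 291, 104 and 96.6 CPM in membrane and 29.3, 9.37 and 6.69 CPM in cytosol (log2 ratio 3.52, SE 0.18, adjusted p = 4.34e-09). Flna, an actin cross-linking protein, stood at 2.88, the integrin activator Tln1 at 2.05 and the non-muscle myosin heavy chain Myh9 at 1.16, though at -0.63 by RNA-seq. None of these 4 carries a signal peptide. The actin-binding peptide Tmsb4x was the lowest of the list at -2.01, and Actb, at 6855, 6295 and 5472 CPM in membrane and 9064, 5912 and 6654 CPM in cytosol, was not called (-0.20). Of 14 glycolytic enzymes, 5 were lower and 2 higher (median -0.27), or 2 and 1 without the pair as a block: the hexokinases Hk2 (2.16) and Hk1 (1.56) were higher, and Aldoa (-0.68) was lower.

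Nuclear-encoded mitochondrial genes were mostly lower in membrane. Of 38 mitochondrial ribosomal proteins, 31 were lower and 0 higher (median -0.95; 19 lower without the pair as a block), and Mrpl12 had 776, 894 and 729 CPM in membrane and 1831, 2188 and 1754 CPM in cytosol (log2 ratio -1.27, adjusted p = 9.82e-06). Of 45 respiratory chain and ATP synthase subunits, 26 were lower and 6 higher (median -0.59), or 12 and 3 without the pair as a block. Cox4i1, a cytochrome oxidase subunit, was higher, with 4175, 5208 and 4843 CPM in membrane and 1563, 2042 and 2857 CPM in cytosol (log2 ratio 1.18, adjusted p = 6.57e-05). Sdha, the flavoprotein of succinate dehydrogenase, had 659, 711 and 636 CPM in membrane and 67.1, 235 and 329 CPM in cytosol, and its log2 ratio was 3.29, 1.59 and 0.95 in the 3 pairs (adjusted p = 0.034). None of the 13 mitochondrially encoded transcripts listed had a read.

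The plain pair went the other way in a set of genes. In 895 tested genes the sign in the plain pair was opposite to that in both others. Of these, 29 had a log2 ratio of at least 0.5 in size in every pair and a mean of at least 10 CPM, and they were chosen after their values were seen. All 29 were higher in membrane in the plain pair and lower in the untreated and 0 min pairs, with medians of 0.75, -0.69 and -0.87, where the medians over all genes tested were 0.04, 0.01 and -0.08. None of the 29 was called. Of the 29, 21 encode mitochondrial proteins, as annotated by hand after the values were seen. The share of such genes among all genes tested was not determined, so the count has no background to be read against. Ndufb5, a complex I subunit, had 424, 323 and 284 CPM in membrane and 122, 476 and 568 CPM in cytosol, and its log2 ratio was 1.8, -0.56 and -1.0. The mitochondrial ribosomal protein Mrps30 had log2 ratios of 1.8, -0.67 and -0.60, and Tspo, a protein of the outer mitochondrial membrane, had 1.07, -0.88 and -0.74. Idh3a, a subunit of the citric acid cycle's isocitrate dehydrogenase, had 0.58, -0.94 and -1.69. Among the other 8 was S100a6, a calcium-binding protein, with 17567, 10312 and 8909 CPM in membrane and 6419, 16747 and 19303 CPM in cytosol. Its log2 ratio was -0.16 over all 3 pairs (adjusted p = 0.846) and -0.86 without the plain pair (adjusted p = 0.000362).

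The respiratory chain list had a median log2 ratio of -0.20, -0.82 and -0.74 in the 3 pairs, and without the plain pair 32 of its 45 members were lower instead of 26. ER chaperones had medians of 4.16, 3.53 and 3.60, so the plain pair was the highest in both lists. This did not hold in every list. The plain pair was the lowest for glycolytic enzymes (-0.56, -0.22 and -0.08) and for splicing factors (-0.71, -0.55 and -0.49). In gradient fractions of proliferating cells, which were extracted with phenol and chloroform instead of TRIZol, the median of the 29 genes for membrane over cytosol was 0.38 and 0.75 in the polysome replicates and -0.09 and 0.45 in the monosome replicates. Over all genes tested, these medians were -0.03 and -0.03 in polysomes and 0.19 and 0.22 in monosomes. What set the plain pair apart from the others was not tested.

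**Figure D3:**
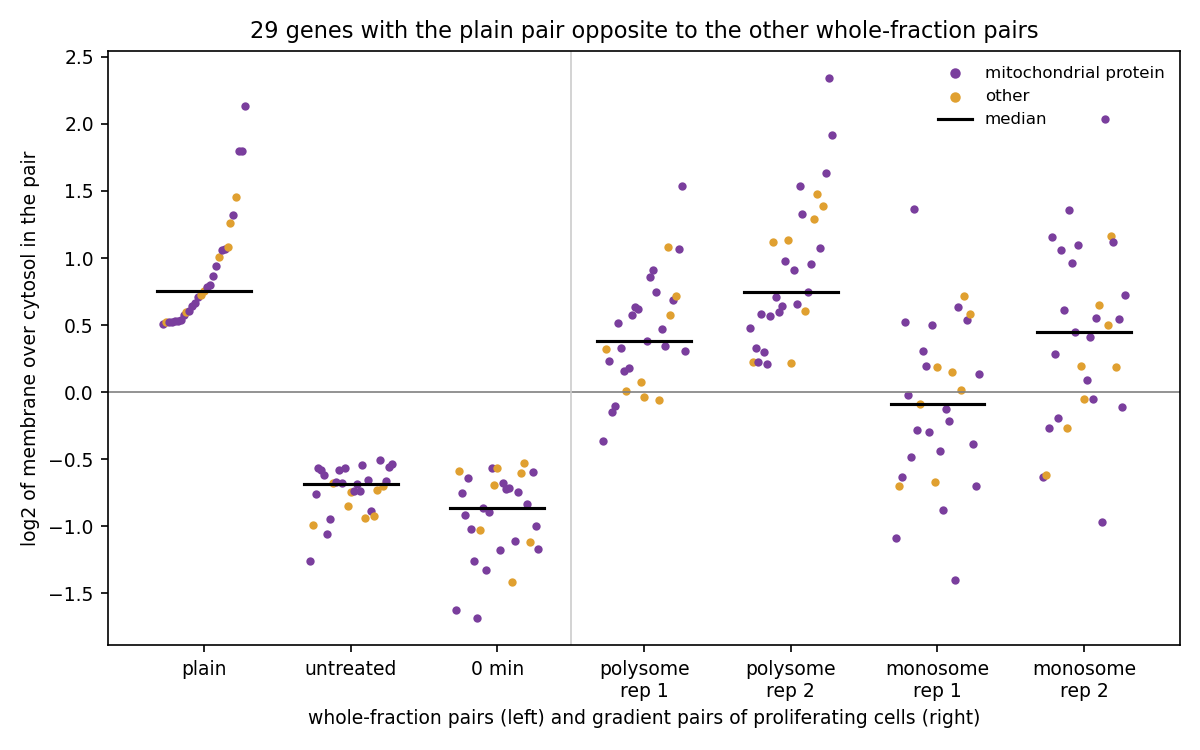
Log2 ratio of membrane over cytosol in each of the 3 pairs, and in the gradient pairs of proliferating cells, for the 29 genes whose plain pair went the other way (1 point a gene, bars are medians, mitochondrial proteins coloured apart). All 29 lie above 0 in the plain pair and below 0 in the untreated and 0 min pairs, which the choice of genes fixes.

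Noncoding RNAs and selenoproteins were mixed in direction, and some had large ratios. Neat1, the scaffold RNA of nuclear paraspeckles, had 38.1, 121 and 173 CPM in membrane and 5.14, 15.9 and 12.0 CPM in cytosol (log2 ratio 3.25, SE 0.22, adjusted p = 9.69e-08). Of 5 nuclear long noncoding RNAs tested, 3 were higher and 1, Pvt1, was lower (-0.68; not called without the 0 min pair), while Malat1, at 4.04, 2.24 and 2.52 CPM in membrane and 0.756, 2.81 and 1.27 CPM in cytosol, was not called (0.88). Of 10 selenoproteins, 3 were higher and 4 lower (2 lower without the pair as a block). Among all genes tested, 31.8% were higher and 30.0% lower, so the list had no clear direction. Sepn1, an ER membrane selenoprotein, had 388, 319 and 369 CPM in membrane and 11.8, 14.2 and 27.2 CPM in cytosol (log2 ratio 4.40), and the small cytosolic Sepw1 was lower at -1.63.

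The largest ratio among genes with a mean of at least 10 CPM belonged to Cstf2t, whose product is a nuclear polyadenylation factor without a signal peptide. It had 4114, 1366 and 1029 CPM in membrane and 20.1, 32.4 and 11 CPM in cytosol (log2 ratio 6.53, SE 0.55, adjusted p = 0.000376). Its reads came almost all (99.9%) from 1 site on the + strand of chromosome 19 at 31161481 (mm9). That site had 25461, 16440 and 8167 reads in membrane and 127, 169 and 65 reads in cytosol. Whether these reads belong to Cstf2t could not be checked, since no mm9 annotation was used. The other genes at the top encode proteins of the secretory pathway or membranes, among them Tmem132a (5.97), the extracellular superoxide dismutase Sod3 (5.96), Scarb2 (5.55), the anion carrier Slco3a1 (5.44) and the retinol saturase Retsat (5.33). Sod3 had 20.7, 67.4 and 58.8 CPM in membrane and 0.907, 0.937 and 0.319 CPM in cytosol.

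The largest differences in the other direction, again among genes with a mean of at least 10 CPM, were smaller. Calm2, 1 of the calmodulin genes, had 55.7, 21.9 and 30.2 CPM in membrane and 166, 149 and 230 CPM in cytosol (log2 ratio -2.42, SE 0.27, adjusted p = 6.86e-05). After the ribosomal protein gene Rpl32 (-2.23) came Fth1, the ferritin heavy chain, which had 927, 1261 and 1241 CPM in membrane and 2872, 6389 and 7176 CPM in cytosol (log2 ratio -2.17, SE 0.19, adjusted p = 1.06e-06). Next were the ribosomal protein genes Rpl6 (-2.10) and Rplp0 (-2.06), Bet1 and the G protein subunit Gng10 (both -2.05) and the iron-sulfur cluster factor Bola3 (-2.03).

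RNA-seq of membrane and cytosol of proliferating cells, with 1 library each and no test, gave another measure. Membrane held 6521105 reads and cytosol 4415706 reads in the 3' UTR regions counted. Across 6769 genes the log2 ratios of both assays had a Pearson correlation of 0.902 and a Spearman correlation of 0.848, a description across genes, which are not independent replicates. Of 2055 genes higher in membrane by 3' ends, 1911 (93.0%) were above 0 by RNA-seq, as were 89 of 2186 lower genes.

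The use of alternative poly(A) sites was compared for the 2 most abundant sites of each gene, at most 10 kb apart on the genome. Introns between them are not removed from these distances, and no annotation of exons or UTRs was used. Among 4660 such pairs of sites, the share of the distal site, which as a rule gives the longer 3' UTR, was higher in membrane in 124 genes (2.66%) and lower in 37 (0.794%), 3.45% in all. The spread in this test was in effect shared over genes. A very low adjusted p for site use thus does not show that a gene's own libraries agreed closely. Site calls were sensitive to the fit: 61 were higher and 16 lower with DESeq2, which gave no adjusted p for 2891 of the 4660 pairs, 1 and 2 without the pair as a block, 59 and 20 without the 0 min pair, and 27 and 8 without the untreated pair. The median log2 difference was 0.13 over the 4499 pairs not called and 0.15 over all pairs, of which 2740 of 4660 (58.8%) were above 0. Per library, the median log2 ratio of distal over proximal reads was 0.58, 0.50 and 0.42 in membrane and 0.40, 0.32 and 0.21 in cytosol. The means were 0.499 ± 0.085 in membrane and 0.311 ± 0.0996 in cytosol (SD, n = 3 each), and the fractions did not overlap. The difference of 0.188 had a two-sided exact permutation p of 0.1, the smallest that 3 against 3 libraries can give.

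The difference grew with the distance between the sites. Where sites lay within 200 nt, the median difference was 0.01 over 1221 genes, with 3 distal shares higher and 6 lower in membrane. Between 1000 and 2000 nt it was 0.28 over 881 genes (32 higher, 3 lower), and between 4000 and 10000 nt it was 0.42 over 356 genes (30 higher, 8 lower). The share of pairs above 0 was 51.2% in the shortest bin and 68.0% in the longest. Split by the call at the gene level, the median difference was 0.11 over 1483 genes higher in membrane, 0.13 over 1321 lower genes and 0.20 over 1815 genes not called. These are descriptions across genes, with no test of the trend.

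**Figure D4:**
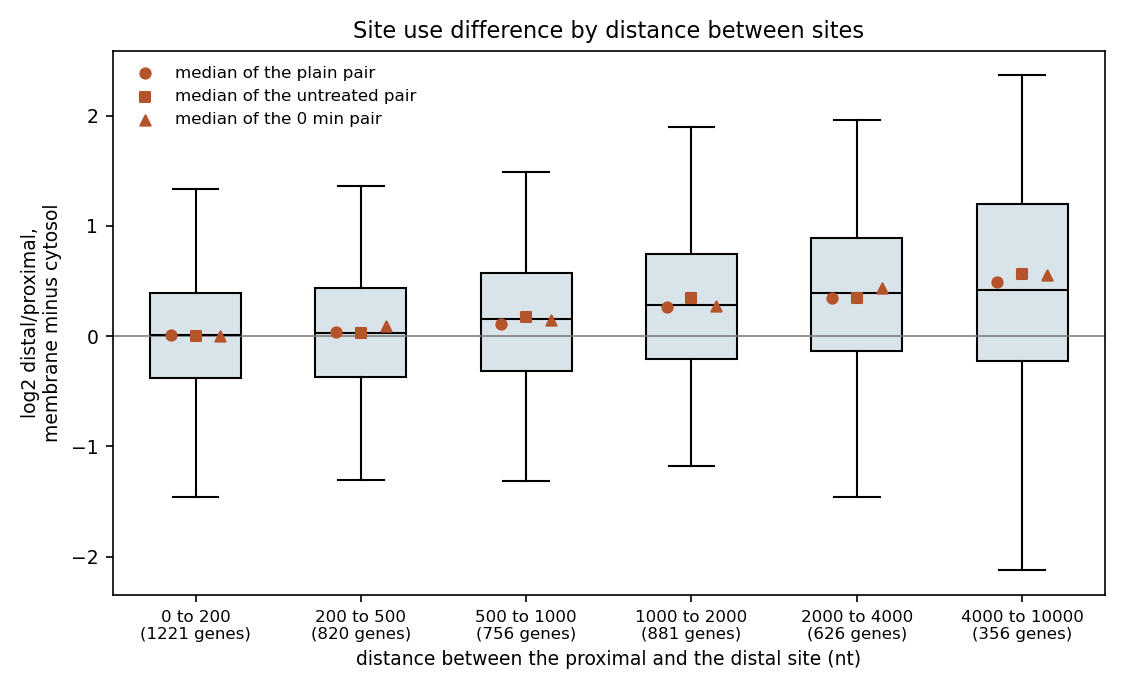
Difference between membrane and cytosol in the log2 ratio of distal over proximal reads, by the distance between the sites in nt. Boxes span the quartiles, whiskers reach the 5th and 95th percentiles, symbols are the medians of single pairs, and the median is 0.01 in the shortest bin and 0.42 in the longest.

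Slc35b2, the Golgi carrier of the sulfate donor PAPS, had the lowest adjusted p among genes with a higher distal share in membrane. Its sites lie 1614 nt apart on the + strand of chromosome 17, at 45703004 and 45704618 (mm9), with another site at 45703799 between them. The distal share was 68.9%, 81.7% and 82.2% in membrane and 30.1%, 41.7% and 38.7% in cytosol, without overlap (log2 difference 2.61, SE 0.23, adjusted p = 3.25e-27). In reads, the distal site had 956, 2541 and 1503 in membrane and 98, 126 and 70 in cytosol, whereas the proximal site had 432, 571 and 326 in membrane and 228, 176 and 111 in cytosol. At the gene level Slc35b2 was higher in membrane, with 246, 288 and 264 CPM against 52.5, 61.8 and 32 CPM in cytosol (log2 ratio 2.49, adjusted p = 2.62e-07). RNA-seq went the other way, with a log2 ratio of -0.66 for the gene. The gene Hsp90ab1 ends on the opposite strand 124 nt past that distal site, and the sources used here do not say if strand entered the RNA-seq counts.

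Prnp, the prion protein, which is anchored to the cell surface by a lipid, had sites on the + strand of chromosome 2 at 131757045 and 131764165 (mm9), 7120 nt apart. The distal share was 90.9%, 86.1% and 78.3% in membrane and 54.3%, 40% and 33.3% in cytosol (log2 difference 3.03, SE 0.47, adjusted p = 5.13e-08). The cytosol shares rest on few reads, 19, 10 and 11 at the distal site and 16, 15 and 22 at the proximal site. Slc38a2, an amino acid carrier, had distal shares of 88.8%, 88.2% and 77.4% in membrane and 62.6%, 53.0% and 24.6% in cytosol (log2 difference 2.81, SE 0.29, adjusted p = 1.09e-18). The fractions did not overlap in either gene, and both calls held when each pair was left out in turn, as did that of Slc35b2. Without the pair as a block the adjusted p was 0.0725 for Prnp, 0.0858 for Slc38a2 and 0.0111 for Slc35b2. Atp2c1, a calcium pump of the Golgi, had distal shares of 56.9%, 62.7% and 68.1% in membrane and 30.4%, 19% and 10% in cytosol (log2 difference 2.55, adjusted p = 0.0139), and was not called without the untreated pair (adjusted p = 0.441) or the 0 min pair (0.191).

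Some genes with a higher distal share in membrane were not called at the gene level. Mast4, a microtubule-associated kinase, had distal shares of 71.0%, 74.7% and 77.8% in membrane and 46.5%, 29.5% and 48.9% in cytosol (log2 difference 2.05, SE 0.50, adjusted p = 0.00277). Plekha8, a lipid-binding protein of the Golgi, had a log2 difference of 2.14, and Whsc1, a histone methyltransferase, had 2.05. Tmem42, which was called higher at the gene level too (0.69), had distal shares of 2.44%, 23.0% and 37.0% in membrane, with 1, 23 and 27 distal reads, and 0, 0 and 1 distal reads in cytosol (adjusted p = 0.00395). Without the untreated pair none of these 4 genes was called (adjusted p of 0.198 for Tmem42, 0.353 for Plekha8, 0.510 for Mast4 and 0.645 for Whsc1).

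Genes with a lower distal share in membrane were fewer, and some of their sites lay close together. Rps12, a ribosomal protein, had sites 48 nt apart, and the distal share was 80.3%, 48.9% and 66.0% in membrane and 98.9%, 97.4% and 99.2% in cytosol (log2 difference -5.24, SE 0.35, adjusted p = 6.33e-46). Pcbd2, a pterin dehydratase that also acts as a transcriptional cofactor, had distal shares of 31.3%, 44.2% and 66.4% in membrane and 89.2%, 86.1% and 93.5% in cytosol (log2 difference -3.32, SE 0.31, adjusted p = 1.13e-23). Osgep, which modifies tRNA, had 57.3%, 88.0% and 95.6% in membrane and 94.8%, 97.5% and 99.3% in cytosol, overlapping across pairs while lower within each (log2 difference -3.0). Ccdc163 had 45.4%, 65.8% and 85.8% in membrane, while its proximal site had 2, 1 and 0 reads in cytosol. The lowest membrane share was in the plain pair for Pcbd2, Osgep and Ccdc163, and in the untreated pair for Rps12.

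**Figure D5:**
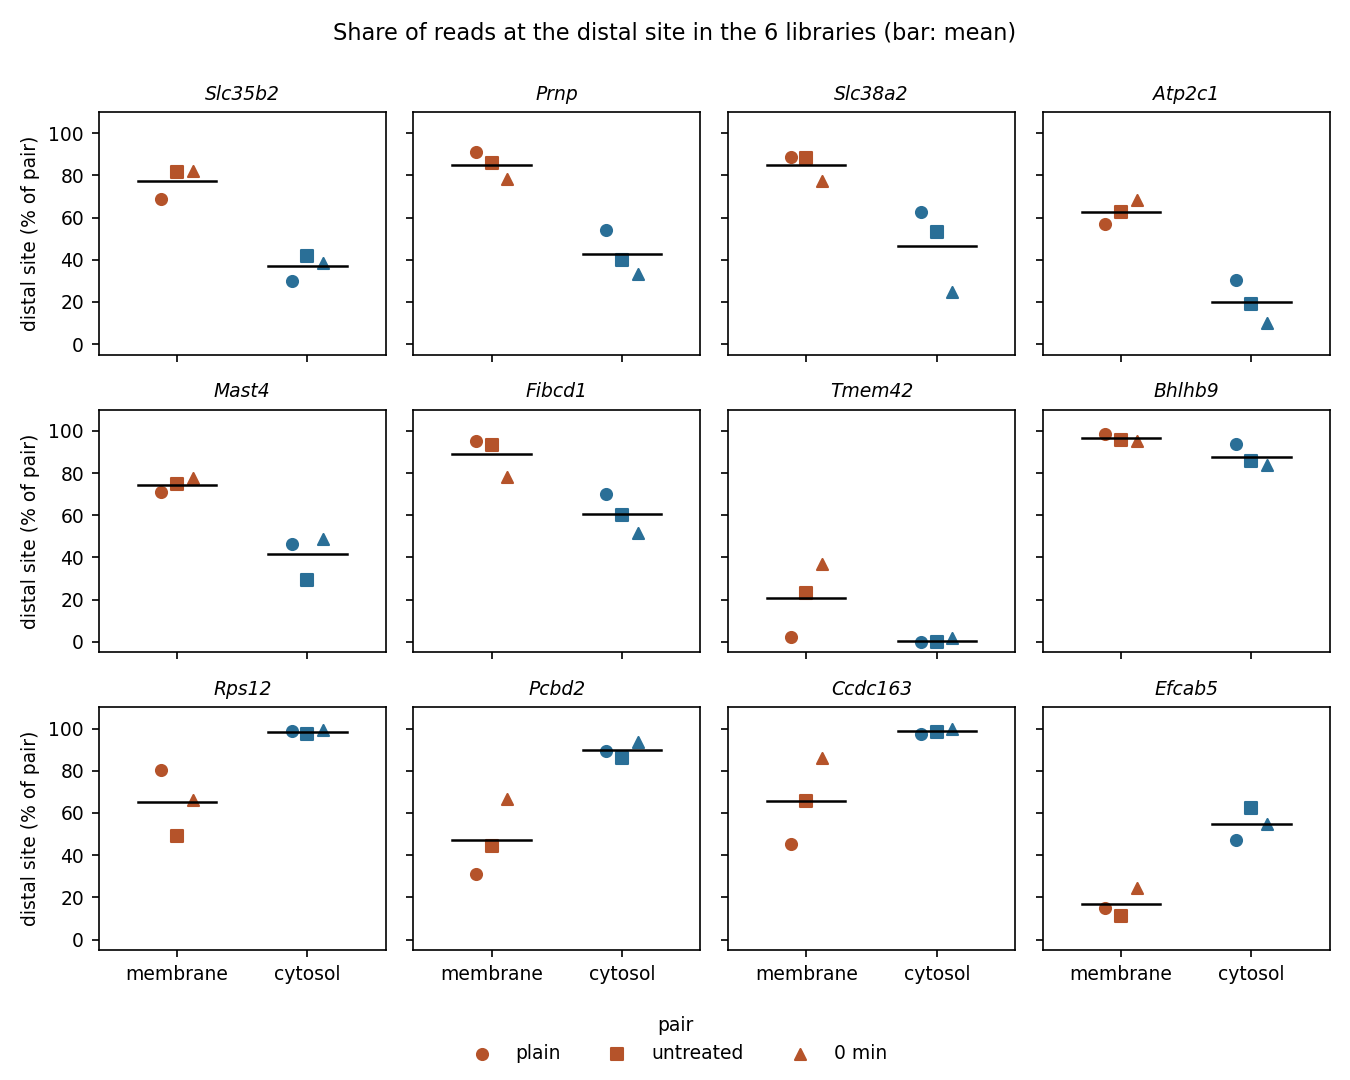
Share of the distal site among the reads of both sites, in percent, for 12 genes in each of the 3 membrane libraries (left) and the 3 cytosol libraries (right), with symbols for the pairs and bars for the means. Slc35b2 lies at 68.9% to 82.2% in membrane and at 30.1% to 41.7% in cytosol.

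RNA-seq counts over the alternative and the constitutive 3' UTR did not follow these calls gene by gene. The log2 ratio of the alternative over the constitutive region was above 0 for membrane against cytosol in 79.6% of 1761 genes, with a median of 0.44. It was above 0 in 60 of 75 genes whose distal share was higher in membrane and in 11 of 13 whose distal share was lower. The Pearson correlation between both measures across genes was -0.02.

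Puromycin is known to release the growing chain from the ribosome and so to end translation. The 4 exposed libraries, 30 and 60 min at 100 µg/ml with 1 membrane and 1 cytosol library each, were compared with the 6 unexposed libraries, which are those described above, so the unexposed values are not a second observation. The ratio of membrane over cytosol differed in 2990 of 11151 genes (26.8%), with 881 higher (7.9%) and 2109 lower (18.9%) after exposure, by edgeR's test of the interaction. With DESeq2 size factors, which moved the median interaction of all genes to 0.20 against 0.07, the split was 1425 higher and 2007 lower, without the plain pair it was 1854 and 2104, and without pairs as a block it was 81 and 1420. Of the 3097 genes higher in membrane in unexposed cells, 1884 were lower and 109 higher after exposure. All 26 ER chaperones were lower, with a median log2 ratio of -0.46 in exposed cells and 3.83 in unexposed cells, as were 22 of 23 lysosomal proteins (-0.62 and 3.87) and 30 of 35 matrix and secreted proteins (0.56 and 3.58). Cytosolic ribosomal proteins moved the other way, with 31 of 63 higher, at a median of -0.38 in exposed cells and -1.30 in unexposed cells. The unexposed medians here are not those of the fit of the 6 unexposed libraries alone. That fit gave 3.92 for ER chaperones, 4.1 for lysosomal proteins, 3.76 for matrix and secreted proteins and -1.36 for cytosolic ribosomal proteins. On the tail-anchored list, 9 of 34 were higher and 2 lower (-0.57 and -1.0).

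Site use changed in few genes after exposure, 22 of 4660 (0.472%), with 18 distal differences higher (0.386%) and 4 lower (0.0858%), and with 0 and 1 without pairs as a block or 7 and 4 without the untreated pair. Slc35b2 kept the direction: its distal share at 30 and 60 min was 87.5% and 85.7% in membrane and 76.1% and 78.3% in cytosol, against 68.9% to 82.2% in membrane and 30.1% to 41.7% in cytosol of unexposed cells (interaction -1.69, adjusted p = 0.000114). In Prnp the direction was the opposite, with 62.4% and 68.3% in membrane and 89.4% and 91.2% in cytosol after exposure (interaction -5.33, adjusted p = 5.79e-12).

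The ratio of membrane over cytosol in whole fractions was also set against the mean of those in polysomes and monosomes. With the 8 gradient libraries of proliferating cells, this gave 0 calls in 10799 genes (0.0%) by edgeR without a replicate block. At an unadjusted p under 0.05 there were 850 genes, and DESeq2 size factors gave 0 calls. Against such a mean, 0 calls do not show that whole fractions matched either gradient fraction. With the replicate block there were 858 calls (7.95%), 557 higher (5.16%) and 301 lower (2.79%) in whole fractions. The median log2 ratio of ER chaperones was 3.83 in whole fractions (3.92 in the fit of the 6 libraries alone), 4.34 in polysomes and 1.41 in monosomes. Extraction and gradient cannot be told apart here, since the gradient RNA was extracted differently.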

How the data were processed

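The 3'READS+ table deposited by the authors holds raw read counts, 1 column per library, for 125369 poly(A) sites with gene symbols, per the file headers. The RNA-seq table holds deposited read counts over constitutive and alternative 3' UTRs. The submitters' processing notes name cutadapt, Bowtie2, STAR 2.5.2 and mm9. PCR duplicates and strand handling are not given in the sources used here.

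Counts were summed over the sites of each of 17005 symbols. The 651 positions with several symbols (0.288% of reads) were left out. Genes passing filterByExpr were tested with edgeR 4.0.16 (TMM, glmQLFit robust, glmQLFTest, R 4.3.3) with fraction and pair as terms and Benjamini-Hochberg adjusted p under 0.05. The pair term was kept because deviations from the fraction means correlated at 0.709, 0.620 and 0.435 within the plain, 0 min and untreated pairs. CPM values are TMM-scaled, and log2 ratios of single pairs have 0.5 CPM added. Site use was tested on the counts of the 2 main sites of a gene, at most 10 kb apart, with a mean of at least 10 reads and at least 5% in the rarer site. Ratios per library had 1 read added. The script was tested on simulated data.

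Of 935 list entries, 799 were tested, 80 were below the filter, 17 had no read and 39 symbols were not in the table. The members and lists were chosen with earlier results of these data known. Named were, per list, the 2 most abundant genes and that with the lowest p, and over all genes or site pairs the 10 largest called changes each way with the same sign in 3 pairs. Some genes of the lists are not reported here by name, and they remain in the counts and medians of their lists.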

Additional observations from a re-analysis of the deposited data

Results flagged for a closer look

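Effects of the fraction that differed between exposed and unexposed cells stand out by the test of the interaction itself (edgeR, adjusted p under 0.05), 881 higher and 2109 lower at the gene level, and 18 higher and 4 lower for site use. The unexposed libraries are shared with the comparison of the report, and the exposed side has 2 membrane and 2 cytosol libraries.

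On the log2 scale, the named genes whose ratio of membrane over cytosol was higher after exposure were Zfp316 (2.93), Ppp1r12c (2.88), Scrib (2.60), Sbf1 (2.46), Rps6ka4 (2.46) and Dip2a (2.12). Scrib, a cell polarity scaffold, had 36.0 and 34.7 CPM in exposed membrane and 2.87 and 1.73 CPM in exposed cytosol, against 32.9, 33.5 and 18.4 CPM in unexposed membrane and 11.8, 13.8 and 8.10 CPM in unexposed cytosol. Its membrane level thus overlapped between exposed and unexposed cells, and its cytosol level did not.

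Those lower after exposure were Spp1 (-6.43), Sod3 (-6.25), Bsg (-5.80), Retsat (-5.79), Cst3 (-5.75) and Cd9 (-5.74), all of which encode secreted or membrane proteins. Spp1 had 814 and 682 CPM in exposed membrane and 3070 and 2526 CPM in exposed cytosol, so that cytosol was the higher fraction at both times.

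For site use, the named differences were higher after exposure for Klhl7 (3.36), Ttyh2 (3.28), Ppp1r12c (2.70), Lnp (2.31), Sel1l (2.15) and H13 (2.13). They were lower for Prnp (-5.33), Slc38a2 (-2.22), Gorasp2 (-1.80) and Slc35b2 (-1.69).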

How the results depend on the processing

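At the gene level the counts stayed within 1.5 times under 8 of 9 alternatives, and without the replicate block, which drops the pair term, 2234 genes were higher and 1237 lower. For site use, DESeq2 gave 61 distal shares higher and 16 lower, no replicate block gave 1 and 2, and leaving out 1 pair gave 27 to 140 higher and 8 to 42 lower. For the exposed comparison, 1425 genes were higher with DESeq2 size factors and 81 without the replicate block, and leaving out 1 pair gave 726 to 1854. For site use after exposure, no replicate block gave 0 higher and 1 lower, and leaving out 1 pair gave 7 to 25 higher. The gradient comparison had 557 higher and 301 lower genes with the replicate block. Genes near 0 changed sign in settings where they were not called. Leaving out 1 pair moved Arf5 between -0.72 and 0.24, S100a6 between -0.86 and 0.38, Eef2 between -0.23 and 0.15, Psmd3 between -0.0011 and 0.14, Atp5a1 between -0.35 and 0.37 and Sf3b2 between -0.00902 and 0.24. Arf5 and S100a6 were called lower without the plain pair (adjusted p = 0.00132 and 0.000362). The cause was not tested for any of these. Of 1070 values for 119 named genes under alternatives, 1028 kept direction and call, and of 612 list counts 560 stayed within 1.5 times. The planned split by protein features was not run, since no protein table was used here. With 3 libraries a side, medians per library cannot reach a p under 0.1, and cytosol shares of distal sites rest on few reads in several genes.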

Other observations

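Families defined by the start of the gene symbol were chosen after values were seen and are described without a test. Of all genes tested, 31.8% were higher and 30.0% lower in membrane. Of 163 Slc genes tested, 123 were higher and 16 lower in membrane (median log2 ratio 2.32), and of 125 Tmem genes 90 were higher and 9 lower (2.15). All 7 Adam proteases and all 4 Pcdh adhesion genes were higher, as were 21 of 25 Gpr receptor genes with 0 lower. The Rab GTPases, which reach membranes through lipid anchors added after translation, had 32 of 50 lower and 2 higher (-0.69). The kinesin genes Kif had 14 of 28 higher and 1 lower (0.68), although kinesins are motors of the cytosol. Of 232 Zfp genes, 51 were higher (22.0%) and 32 lower (13.8%), with a median of 0.19. Both shares were below those of all genes tested.

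Of 88 genes annotated as long noncoding, 17 were higher (19.3%) and 23 lower (26.1%) in membrane (median -0.22). Both shares were below those of all genes tested, 31.8% higher and 30.0% lower. H19, an imprinted growth-related RNA, averaged 125 CPM in membrane and 234 CPM in cytosol (log2 ratio -1.05, SE 0.17, edgeR adjusted p = 0.000132). The microRNA host transcript Dnm3os averaged 31.0 CPM in membrane and 6.06 CPM in cytosol (log2 ratio 2.49, adjusted p = 2.87e-05). Mir17hg, another microRNA host, averaged 12.1 CPM in membrane and 1.32 CPM in cytosol (log2 ratio 3.06, adjusted p = 1.41e-05).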
